A study of Mus musculus with 30 samples.

Results

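The 10 genes described here encode the eIF2 machinery of translation initiation. They are the 3 subunits of eIF2 (Eif2s1, Eif2s2 and Eif2s3x), the 4 kinases that phosphorylate it (Eif2ak1 to Eif2ak4), 2 subunits of its exchange factor eIF2B (Eif2b1 and Eif2b5) and the separate initiation factor Eif2a. They were chosen by symbol from the 23993 genes of the expression table, and all 10 were found. RNA-seq was performed on tdTomato-tagged cells sorted by FACS from the medial prefrontal cortex of mice that carried SstCRE or PvalbCRE together with the Cre-dependent Ai9 (RCL-tdTomato) reporter, both heterozygous, with the strain labelled C57BL/6 and an age of 6 to 12 weeks. The groups were unstressed Sst females (7 libraries), unstressed Sst males (7), Sst males after 14 days of chronic unpredictable stress (CUS) (3) and unstressed Pvalb males (7). The reporter marks every cell in which Cre was active at any time, which can include cells that no longer express Sst or Pvalb. Another 6 samples of the series (1 unstressed Pvalb female, 3 Sst females and 2 Pvalb females after CUS) were not analysed here.

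eIF2 carries the initiator methionyl-tRNA to the small ribosomal subunit in its GTP-bound form, and eIF2B recharges it with GTP after each round. When a kinase phosphorylates the alpha subunit at a single serine, eIF2 binds eIF2B and blocks the exchange, so general translation falls while a few transcripts, Atf4 among them, are translated better. Each kinase answers to its own signal: heme shortage and oxidative or mitochondrial stress for HRI (Eif2ak1), double-stranded RNA for PKR (Eif2ak2), unfolded protein in the endoplasmic reticulum for PERK (Eif2ak3) and uncharged tRNA for GCN2 (Eif2ak4). The readout below is transcript level, which says nothing of phosphorylation.

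The coding stretch of Eif2s1 that holds the phosphorylated serine is shown first because it is the point where the 4 kinases act. The codon in capitals is codon 52 of the reading frame, which encodes serine 51 when the initiator methionine is not counted. The stretch covers coding bases 118 to 192 of 948 (GENCODE M1 transcript).

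Eif2s1: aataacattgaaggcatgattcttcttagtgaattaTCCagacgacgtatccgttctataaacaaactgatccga

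The gamma subunit is encoded by a gene on each sex chromosome, Eif2s3x on X and Eif2s3y on Y, and the stretch of both reading frames with the most differences is shown because the comparison of the sexes rests on telling them apart. Capitals mark the 19 bases that differ among the 90 shown, coding bases 1024 to 1113.

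Eif2s3x: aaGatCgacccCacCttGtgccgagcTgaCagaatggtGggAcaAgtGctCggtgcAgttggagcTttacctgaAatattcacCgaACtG
Eif2s3y: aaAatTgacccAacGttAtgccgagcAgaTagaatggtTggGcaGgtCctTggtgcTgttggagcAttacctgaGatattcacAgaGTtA

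Over the whole frame of 1419 bases the copies differed at 194 bases (86.3% identical), but at only 10 of the 472 encoded residues (97.9% identical). The longest identical run of coding bases was 34, and none of the 1345 stretches of 75 bases, the read length, was shared between the frames.

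On the mouse assembly GRCm38.p6 the genes lie on separate chromosomes or far apart, Eif2s1 at chr12:78862072-78887010, Eif2s3x at chrX:94188709-94212651, Eif2s3y at chrY:1010562-1049134, Eif2ak1 at chr5:143817792-143902717 and Eif2ak3 at chr6:70844484-70905241. Eif2ak1 overlaps Ankrd61 and Aimp2, Eif2a overlaps Serp1, and Eif2ak2 overlaps the pseudogene Gm6548, all of which are in the table. Eif2ak3 overlaps the small nucleolar RNA gene Gm23346 and Eif2ak2 also overlaps Gm26637, neither of which is in the table. Reads from an overlapping gene could have been assigned to either, so the levels of Eif2ak1, Eif2a, Eif2ak2 and Eif2ak3 are uncertain to that degree.

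Several features of the libraries touch every result. Pvalb male libraries 0 and 2 differed from each other by an SD of 0.0170 in log2 ratio over genes, against 0.225 for the next closest pair, and Sst male libraries 0 and 1 by 0.0212. Each pair was counted as 1 sample, which left 22 samples. Within a group further libraries lay close together (SD 0.218 to 0.277) and apart from the rest (0.413 to 1.01), so that the 7 Sst female libraries formed 3 such sets and the 7 Pvalb libraries 3. Whether the members of a set came from separate mice is not stated, and the p-values measure the spread between samples, which may be technical. Of the 7 Sst male controls, 4 have a numbered title, as the female and Pvalb libraries do, and 3 have a longer coded title, as all CUS libraries do. The female title SST-F lacks the number and was counted with the numbered ones. Small nucleolar and Cajal body RNAs held 53.5% to 75.7% of the total FPKM in coded libraries and 1.87% to 8.29% in numbered ones. Xist stood at 300.2 to 333 FPKM in Pvalb male libraries 1, 4 and 5, against the male label, and at most 6.64 in the other male libraries.

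The defining markers of inhibitory neurons were low in all groups. Median FPKM of Gad1 was between 0.219 and 1.06, and that of Slc32a1 between 0 and 0.943. Pvalb was at 0 in 11 of the 24 libraries, Dlx1 in 7, Lhx6 in 6 and Slc32a1 in 4. The summed FPKM of the 10 interneuron markers was 35.2 to 97.3 in coded libraries and 102 to 297 in numbered ones. The summed FPKM of the 12 microglia markers was 3534 to 6391 in Sst females, 5677 to 9331 in numbered Sst males, 3288 to 7209 in coded male controls, 2630 to 3054 after CUS and 7614 to 9473 in Pvalb males. The gene Sst itself did not follow the labels. It was at 4.18 to 49.3 FPKM in Sst females, 0.238 to 6.02 in numbered Sst males, 0 to 2.89 in coded male controls, 1.71 to 5.54 after CUS and 12.5 to 30.5 in Pvalb males, and was lower in Sst than in Pvalb samples (log2 difference -2.08, limma adjusted p = 0.0072). Pvalb was at 0.890 to 5.07 FPKM in Pvalb males and at most 1.93 in all Sst samples. The groups are therefore named by their labels only. In such bulk samples fewer cells of a type and less RNA per cell cannot be told apart.

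Levels are given in FPKM, fragments scaled by transcript length and library size, so that levels of different genes can be compared. In Sst females Eif2a, Eif2s3x, Eif2s2 and Eif2ak1 had the highest means of the 10 genes (23.1 ± 5.06, 22.4 ± 3.30, 21.3 ± 3.43 and 19.3 ± 3.44 FPKM, SD, n = 7), and their ranges overlapped. Eif2s1 (13.1 ± 3.96) and Eif2ak2 (12.9 ± 2.79) followed and did not differ beyond their spread. Eif2ak4 (8.25 ± 0.791), Eif2b1 (6.75 ± 1.69) and Eif2b5 (6.30 ± 1.27) were lower and overlapped as well, and Eif2ak3 was lowest at 3.36 ± 0.790. In Pvalb males Eif2ak1 had the highest mean (28.0 ± 4.93 FPKM, SD, n = 6) and Eif2ak3 again the lowest (3.78 ± 1.49).

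**Figure D1:**
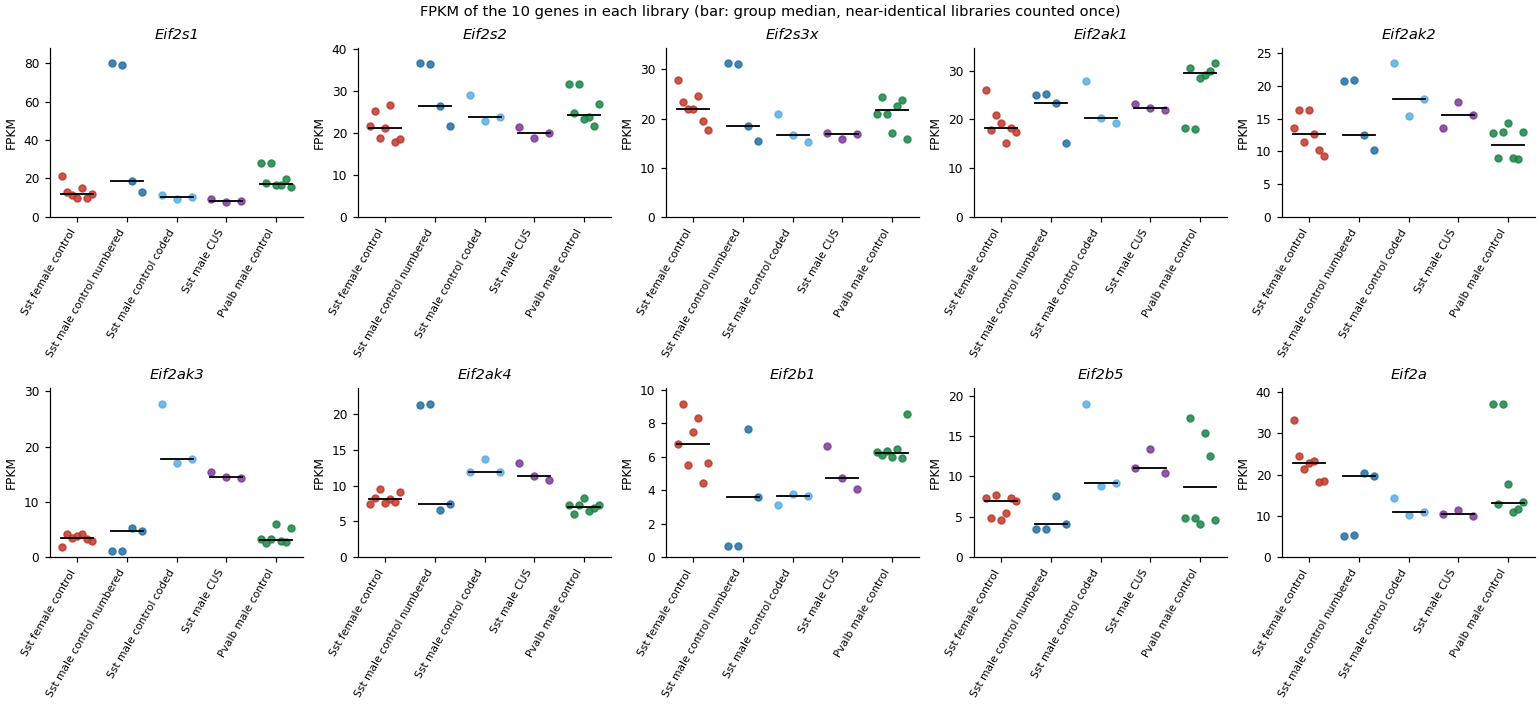
FPKM of the 10 genes (vertical axes, linear from 0) in each of 24 libraries by group (horizontal axes), with a bar at the group median. Eif2s1 stands near 80 FPKM in 2 near-identical numbered Sst male libraries and below 29 elsewhere, and Eif2ak3 is above 14 in every coded library and at most 6.03 in every numbered one.

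Whether the eIF2 genes differ by sex was asked among Sst controls with numbered titles, 7 females against 3 male samples. None of the 10 genes passed the threshold (limma, Benjamini-Hochberg over 14566 genes), against 8.07% of all genes tested, 3.41% higher and 4.65% lower in females. At an unadjusted p below 0.05 there were 4 of the 10, and 27.4% of all genes. The median difference of the 10 genes was -0.04 on the log2(FPKM + 1) scale and that of all genes 0.05. The largest differences were in Eif2s1, Eif2b1 and Eif2a, and in each the male side was spread by 1 sample. On the female side the library titled SST-F stood apart from the others (SD of log2 ratio 0.623 to 0.676). It held the highest female value of Eif2s1 and of Eif2a.

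Eif2s1, the alpha subunit, was at 9.69 to 21.0 FPKM in females (median 11.7) and at 79.7, 18.5 and 12.9 FPKM in the 3 male samples. The pair of near-identical male libraries is the high value, and the other 2 male samples lay within the female range. The top of that range was SST-F, and the next highest female was at 15.1 FPKM, below the male at 18.5. The log2 difference was -1.03 (SE 0.35, adjusted p = 0.066), and it was -0.27 (adjusted p = 0.59) without that pair. Eif2s2, the beta subunit, was at 17.7 to 26.6 FPKM in females (median 21.1) and at 36.5, 26.5 and 21.6 FPKM in males, a log2 difference of -0.37 (SE 0.17, adjusted p = 0.16). The highest male value again belonged to the pair, without which the difference was -0.17 (adjusted p = 0.62). With libraries rescaled without small nucleolar RNA it was -0.12.

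Eif2b1, the alpha subunit of eIF2B through which the exchange factor senses phosphorylated eIF2, was at 4.43 to 9.17 FPKM in females (median 6.75). In males it was at 0.659, 7.66 and 3.57 FPKM, the lowest in the pair. The log2 difference was 0.91 (SE 0.32, adjusted p = 0.078) and 0.27 (adjusted p = 0.60) without the pair. Eif2a, which can deliver initiator tRNA to some transcripts without eIF2, was at 18.3 to 33.3 FPKM in females (median 22.8) and at 5.22, 20.4 and 19.8 FPKM in males, a log2 difference of 0.76 (SE 0.34, adjusted p = 0.15) that was 0.17 (adjusted p = 0.81) without the pair. The groups overlapped in all 4 genes. Of the other 6, the 4 kinases had log2 differences between -0.29 and 0.03 and Eif2b5, the catalytic subunit of eIF2B, of 0.30 (SE 0.36, adjusted p = 0.62).

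Eif2s3x was at 17.7 to 27.8 FPKM in females (median 22.0) and at 31.2, 18.5 and 15.3 FPKM in males. The log2 difference of 0.09 (95% confidence interval -0.30 to 0.49, adjusted p = 0.79) was smaller than the spread within either sex. Without the pair, in which Eif2s3x was highest, it was 0.38 (unadjusted p = 0.048, adjusted p = 0.25), and with libraries rescaled without small nucleolar RNA 0.34 (adjusted p = 0.16). Eif2s3y had a listed value of 0 in each of the 7 females and stood at 35.5, 39.6 and 74.8 FPKM in the male samples. It was lower in females (limma adjusted p = 5.12e-08), which checks the sex labels of the Sst libraries.

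The sum of both gamma subunit transcripts was 22.4 ± 3.30 FPKM (SD, n = 7) in Sst females and 71.6 ± 16.6 FPKM (n = 3) in numbered Sst males. The ranges were 17.7 to 27.8 and 58.1 to 90.1 FPKM and did not overlap. The log2 difference was -1.62, a sum 3.08-fold higher in males (two-sided exact permutation p = 0.0167, the smallest this design allows). Eif2s3y was 0 in every female and Eif2s3x differed little, so the sum was bound to be higher in males. The p-values of the sum are therefore no support beyond the difference in Eif2s3y, and the folds describe its size. In coded male controls the sum was 46.9 ± 3.57 FPKM (n = 3), 2.06-fold above the females (exact permutation p = 0.0167). With all 6 male samples it was 2.52-fold above (exact permutation p = 0.00117, again the smallest possible). With close-lying libraries averaged, 3 against 3 samples, the fold was 2.93 and the exact permutation p 0.1, the smallest such a design can give.

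The Pvalb male libraries fell apart in the same sum. In libraries 1, 4 and 5, those with high Xist, Eif2s3y was at 12.1, 10.4 and 8.58 FPKM and made up 26.6% to 33.2% of the sum. In the other Pvalb libraries Eif2s3y was at 47.0 to 62.0 FPKM and made up 74.7% to 75.3%. Eif2s3x was at 22.6 to 24.3 FPKM in the former and 15.9 to 21.0 in the latter.

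**Figure D2:**
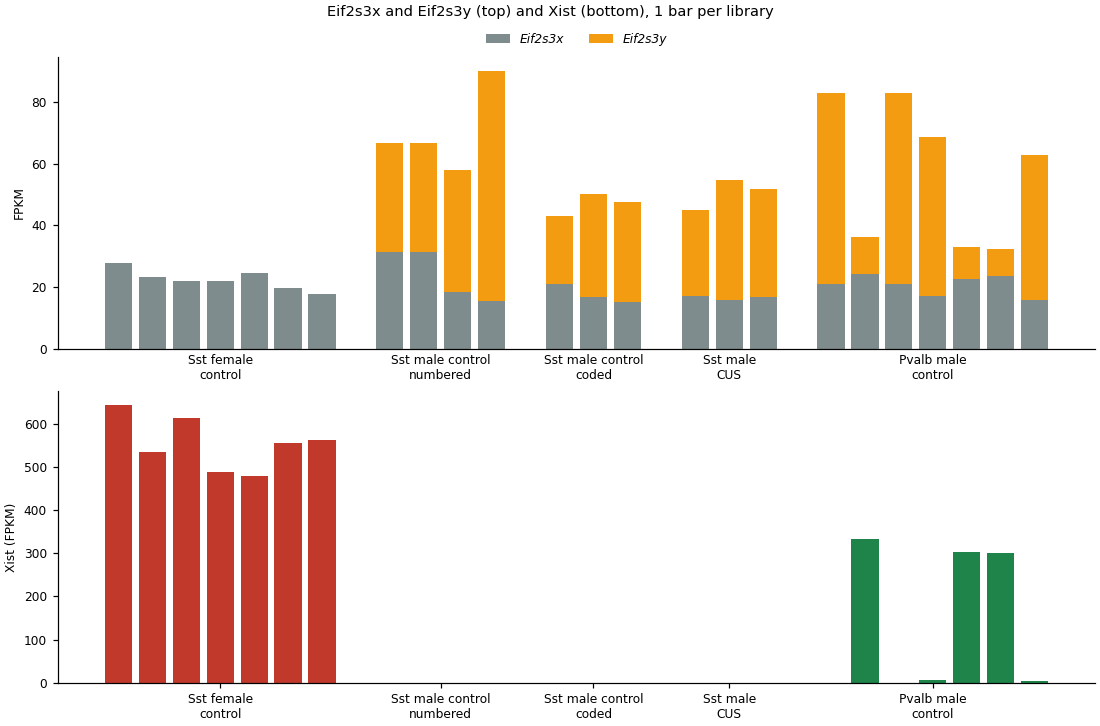
Stacked FPKM of Eif2s3x and Eif2s3y (top) and FPKM of Xist (bottom), 1 bar per library on linear axes from 0. Eif2s3y is absent from the bars of all 7 Sst females, and 3 Pvalb male libraries combine Xist of 300.2 to 333 FPKM with a low Eif2s3y.

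Among related genes, 2 of 9 partners of the initiator tRNA step were lower in females, Eif1, which guards start codon choice (log2 difference -0.78, adjusted p = 0.0098), and Eif5, the GTPase-activating protein of eIF2 (-0.58, adjusted p = 0.047). Of 7 tested regulators of the kinases only Hspa5, the chaperone BiP that holds PERK inactive, passed (-1.20, adjusted p = 0.000241). Of 6 tested transcripts downstream of phosphorylated eIF2alpha, Atf4 (-1.41, adjusted p = 0.0039) and Ddit3 (-1.20, adjusted p = 0.027) were lower in females. None of the other 3 eIF2B subunits and none of 7 phosphatase genes passed, 0 and 4 of them with an unadjusted p below 0.05. With close-lying libraries averaged, each of the 5 named genes had a limma adjusted p of 0.74 at a log2 difference between -1.31 and -0.56, and 13 genes of the whole table passed in place of 1175. Eif5 also lost its call in 16 of 22 fits without 1 sample. Under other scalings of the libraries the difference of Eif5 was -0.65 to -0.19 with 2 calls lost, that of Eif1 -0.85 to -0.36 with 1 lost and that of Ddit3 -1.26 to -0.95 with 2 lost. Of the 12 microglia markers 8 were lower and 1 higher in females. All 4 endothelial markers and all 5 oligodendrocyte markers (median log2 difference 0.61) lay higher, none past the threshold and 2 of each with an unadjusted p below 0.05. The part of these cell types in the differences was not tested.

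The effect of CUS was asked in Sst males with coded titles, 3 against 3. None of the 10 genes passed (limma), against 0.0206% of all genes tested, and none had an unadjusted p below 0.05, against 4.38% of all genes. The median difference of the 10 genes was -0.10 and that of all genes 0.

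Eif2ak3 (PERK) was at 15.4, 14.4 and 14.2 FPKM after CUS and at 27.8, 17.1 and 17.8 FPKM in controls. All 3 CUS libraries lay below all 3 controls, and the log2 difference was -0.45 (SE 0.35, 95% confidence interval -1.19 to 0.29). How many of all genes separate in this way was not counted, so lack of overlap between these small groups is description only. Eif2s2 was at 21.5, 18.8 and 19.9 FPKM after CUS and at 28.9, 22.7 and 23.7 FPKM in controls, again without overlap (log2 difference -0.30, SE 0.20). Eif2b1 was at 6.65, 4.72 and 4.06 FPKM after CUS and at 3.09, 3.78 and 3.66 FPKM in controls, the only gene of the 10 whose CUS libraries all lay higher (0.43, SE 0.38). For each of these 3 the adjusted p was 1.

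The control with the highest Eif2ak3 and Eif2s2 stood apart from the other 2. It also had the highest Eif2b5 (19.0 FPKM against 8.81 and 9.14), Eif2ak1 (27.9 against 20.4 and 19.2) and Eif2ak2 (23.5 against 15.3 and 18.0), and a summed microglia marker level of 7209 FPKM against 3288 and 3587. Without this control the Eif2ak3 difference was -0.24, and none of the 10 genes passed the threshold.

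The remaining genes differed little. Eif2s1 was at 9.37, 7.71 and 8.11 FPKM after CUS and at 11.3, 9.01 and 10.1 FPKM in controls (log2 difference -0.24, 95% confidence interval -1.10 to 0.61). The log2 difference was -0.26 (95% confidence interval -0.80 to 0.29) for Eif2ak2 and between -0.12 and 0.02 for Eif2s3x, Eif2ak1, Eif2ak4, Eif2b5 and Eif2a. No gene of the related lists passed. Ppp1r15a, the stress-induced subunit that directs phosphatase to eIF2alpha, had a log2 difference of 0.85 (SE 0.30, unadjusted p = 0.011, adjusted p = 1). All 12 microglia markers were lower after CUS, 5 of them with an unadjusted p below 0.05 and none past the threshold. All 4 endothelial markers (median log2 difference 1.55) and all 5 oligodendrocyte markers (0.98) lay higher after CUS, 3 of each with an unadjusted p below 0.05. Their summed FPKM was 103 to 169 and 1459 to 1802 after CUS, against 16.0 to 91.3 and 345 to 1166 in controls. The part of these cell types was not tested.

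Set against the numbered male controls in place of the coded ones, CUS libraries had a log2 difference in Eif2ak3 of 1.90 (limma adjusted p = 0.000434), opposite in sign to that above, and in Eif2s1 of -1.58 (adjusted p = 0.0065). That contrast differs in the kind of title as well as in stress, and the 2 cannot be told apart in it.

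**Figure D3:**
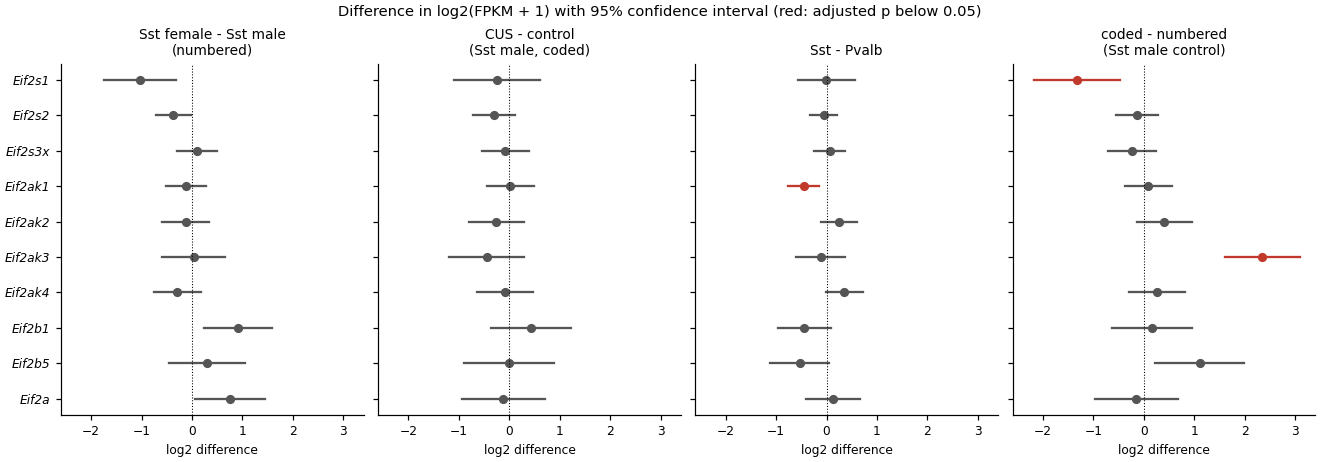
Difference of means in log2(FPKM + 1) (horizontal axes) for the 10 genes in 4 comparisons, points with 95% confidence intervals from limma, red where the adjusted p is below 0.05. Red points are Eif2ak1 in Sst against Pvalb (-0.45), and Eif2ak3 (2.35) and Eif2s1 (-1.33) in coded against numbered male controls.

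The lines were compared as the mean of Sst female and numbered Sst male samples against 6 Pvalb male samples. Of the 10 genes 1 passed (limma), against 13.8% of all genes tested, 6.48% higher and 7.27% lower in Sst. That gene was Eif2ak1, the heme-regulated kinase HRI, at 18.2 to 31.6 FPKM in Pvalb males (median 29.5), at 15.2 to 26.0 in Sst females (median 18.3) and at 25.2, 23.3 and 15.2 in numbered Sst males. In Pvalb males 5 of 6 samples were between 28.6 and 31.6 FPKM, above every Sst sample, while the near-identical pair was at 18.2. The log2 difference was -0.45 (SE 0.15, adjusted p = 0.044).

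The call did not hold in most other settings. It was lost in 15 of 22 fits that left out 1 sample, namely each of the 5 high Pvalb samples, 6 of the 7 Sst females, Sst male library 4 and each of the 3 CUS libraries, which enter only through the shared estimate of spread. The adjusted p in those fits was at most 0.11. It was lost without the 3 Pvalb libraries of high Xist (-0.34, adjusted p = 0.37) and with close-lying libraries averaged (-0.29, adjusted p = 0.94). When the average microglia marker level entered the fit the difference was 0.13 (adjusted p = 0.81). Of those 12 markers 3 were lower in Sst and none higher. Other markers moved as well, with 3 of 4 endothelial markers higher in Sst (median log2 difference 1.71) and 2 of 6 pan-neuronal markers lower (-0.78), and their part was not tested. Without the near-identical Pvalb pair it was -0.57 (adjusted p = 0.0047).

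Eif2b5 split the Pvalb males more widely than the lines. It was at 17.3, 15.4 and 12.5 FPKM in libraries 1, 4 and 5 and at 4.16 to 4.87 in the other samples, and the range over Sst females and numbered Sst males was 3.51 to 7.67. The libraries with high Eif2b5 are those with high Xist. Across the lines its log2 difference was -0.53 (SE 0.28, adjusted p = 0.20). Eif2ak2 ran the other way within Pvalb males, at 8.90 to 9.04 FPKM in the same libraries and 13.0 to 14.4 in the remaining samples, and Eif2a was at 11.0 to 12.8 and 13.4 to 37.1 FPKM. The samples were separated by Xist, so these values are a description without a test.

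Of the eIF2 subunits none passed the threshold between the lines. In Eif2s1 the Pvalb males all exceeded 7 of the 10 Sst samples, while the near-identical Sst male pair exceeded all Pvalb males. Its log2 difference was 0.00 (95% confidence interval -0.56 to 0.55), and without that pair -0.39 (unadjusted p = 0.035, adjusted p = 0.14). The log2 differences were -0.05 for Eif2s2 (95% confidence interval -0.32 to 0.21) and 0.06 for Eif2s3x (-0.24 to 0.37). Eif2ak4 had a log2 difference of 0.35 (SE 0.18, adjusted p = 0.18) and Eif2b1 of -0.44 (SE 0.25, adjusted p = 0.24). Those of Eif2ak2, Eif2ak3 and Eif2a were 0.25 (SE 0.17), -0.12 (SE 0.23) and 0.13 (SE 0.26), with adjusted p between 0.34 and 0.77. Among regulators of the kinases, Dnajc3, the chaperone P58IPK that inhibits PKR and PERK, was higher in Sst (0.69, adjusted p = 0.0015), as was Hspa5 (0.56, adjusted p = 0.0065), and Gcn1l1, the activator of GCN2, was lower (-0.93, adjusted p = 0.0081). Asns, asparagine synthetase and a target of ATF4, was lower (-1.55, adjusted p = 0.0050), and so was Denr, a factor of ribosome recycling and reinitiation (-0.79, adjusted p = 0.039). With close-lying libraries averaged each of these 5 had a limma adjusted p of 0.93, and 9 genes of the whole table passed in place of 2003. Denr lost its call in 8 of 22 fits without 1 sample and in 1 other scaling.

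Male Sst controls of the same labelled condition were compared by title, 3 coded against 3 numbered samples, to show how far the genes vary outside the study's conditions. Of the 10 genes 2 passed (limma), 1 higher and 1 lower in coded libraries, against 24.3% of all genes tested, 11.4% higher and 12.9% lower. Neither share is read as particular to the 10 genes.

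Eif2ak3 was at 27.8, 17.1 and 17.8 FPKM in coded controls and at 1.07, 5.19 and 4.76 FPKM in numbered controls. The groups were far apart, with a log2 difference of 2.35 (SE 0.35, 5.10-fold, adjusted p = 5.62e-05). The difference lay between 1.84 and 2.63 in fits without 1 sample and was 2.46 with close-lying libraries averaged (adjusted p = 0.025), and it passed the threshold in all 22 and 12 other fits. Together with the CUS libraries, every coded library was above 14 FPKM, and numbered females and Pvalb males stood at 1.87 to 6.03. The share of small nucleolar and Cajal body RNA separates the same libraries. Eif2ak3 itself overlaps a small nucleolar RNA gene, and the part of such reads in its level was not tested.

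Eif2s1 was at 11.3, 9.01 and 10.1 FPKM in coded controls and at 79.7, 18.5 and 12.9 FPKM in numbered controls, without overlap. The log2 difference was -1.33 (SE 0.41, adjusted p = 0.021), and without the near-identical pair it was -0.57 (adjusted p = 0.15). Eif2b5 was higher in every coded control (19.0, 8.81 and 9.14 FPKM against 3.51, 7.59 and 4.15) with a log2 difference of 1.11 (SE 0.43, adjusted p = 0.064). The share of all genes without overlap between the titles was not counted, so the separation of Eif2s1 and Eif2b5 is description only. The other 7 genes had log2 differences between -0.23 (Eif2s3x, SE 0.23) and 0.40 (Eif2ak2, SE 0.26) and adjusted p of 0.28 or more, with Eif2s2 at -0.14, Eif2a at -0.15, Eif2ak1 at 0.09, Eif2b1 at 0.16 and Eif2ak4 at 0.26. Of the 12 microglia markers 4 were lower and 1 higher in coded controls. Among related genes Eif5 (-1.57, adjusted p = 1.31e-05), Eif1 (-1.53, adjusted p = 7.65e-06) and Mcts1, a partner of Denr (-1.46, adjusted p = 0.0063), were lower in coded libraries and Denr was higher (1.21, adjusted p = 0.023). Regulators moved in both directions, Gcn1l1 (1.43, adjusted p = 0.0031) and Adar, the double-stranded RNA editing enzyme (0.70, adjusted p = 0.032), up and Dnajc3 (-0.79, adjusted p = 0.0038) and Impact, an inhibitor of GCN2 activation (-0.75, adjusted p = 0.025), down. Of the phosphatase list Nck2 (1.46, adjusted p = 0.0073) and Ppp1r15a (0.84, adjusted p = 0.049) were higher and Ppp1cc, a catalytic subunit, was lower (95% confidence interval -1.47 to -0.52, adjusted p = 0.0028). With close-lying libraries averaged Eif5, Eif1 and Mcts1 passed (adjusted p of 0.016, 0.024 and 0.046) and the other 8 did not. Ppp1r15a lost its call in 19 of 22 fits without 1 sample, and Impact and Dnajc3 each lost theirs in 1 other scaling. None of the 3 other eIF2B subunits and none of the 6 downstream transcripts passed by title. By line none of the other eIF2B subunits and none of the phosphatase genes passed.

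The makeup of the kinase transcripts followed the same division. Eif2ak1 was the most abundant of the 4 in each of the 24 libraries. Eif2ak3 made up 7.78% ± 1.97 of their summed FPKM in Sst females (SD, n = 7), 8.38% ± 5.97 in numbered Sst males (n = 3) and 7.42% ± 2.17 in Pvalb males (n = 6). In coded controls its share was 27.6% ± 2.53 (n = 3) and after CUS 22.8% ± 0.793 (n = 3). The summed level was 43.7 ± 4.12 FPKM in Sst females, 51.2 ± 15.8 in numbered males, 50.0 ± 6.04 in Pvalb males, 74.8 ± 14.0 in coded controls and 64.5 ± 1.79 after CUS. The near-identical Sst male pair had the lowest Eif2ak3 share (1.57%) and the highest Eif2ak4 share (31.2%) of all samples, with Eif2ak4 at 21.4 FPKM.

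**Figure D4:**
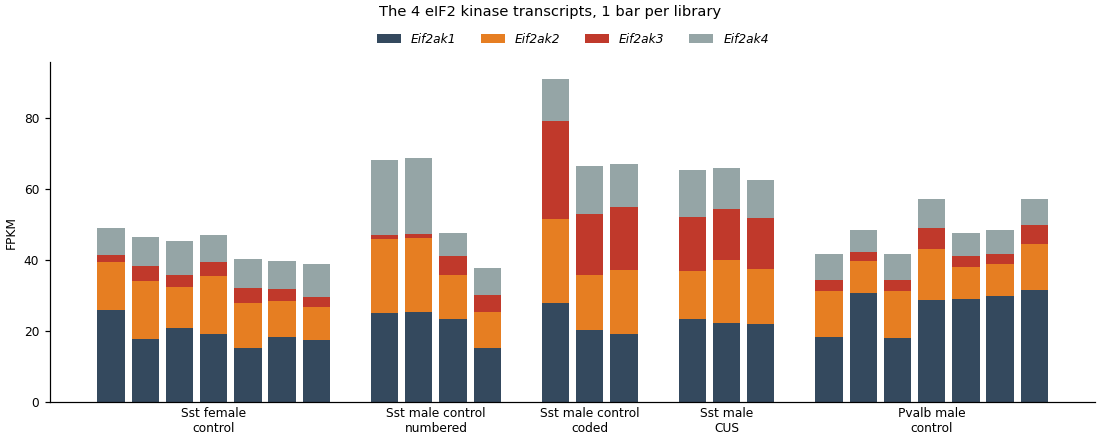
Stacked FPKM of Eif2ak1, Eif2ak2, Eif2ak3 and Eif2ak4 (vertical axis, linear from 0), 1 bar per library by group. The Eif2ak3 segment is 14.2 to 27.8 FPKM in the 6 coded libraries and at most 6.03 in the numbered ones.

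Across the 22 samples the highest correlation of any 2 of the 10 genes was that of Eif2s1 with Eif2s2 (Pearson r = 0.74 on log2(FPKM + 1)) and the lowest that of Eif2ak4 with Eif2b1 (-0.76). Both ranks rested on the near-identical Sst male pair. In the 21 samples without it these were 0.60 and -0.54, and the highest and lowest were Eif2ak3 with Eif2ak4 (0.86, from 0.39 with the pair) and Eif2s1 with Eif2ak4 (-0.73, from 0.12). The genes most like Eif2s1 were Ywhae, Wac, Kdm2a, Ube2d2a and Uba1, with r from 0.96 to 0.93 over 22 samples and from 0.90 to 0.86 over 21. Those most like Eif2s3x were Ugdh, Gm14393, Ccndbp1, Map3k7 and Arl14ep, with r from 0.83 to 0.80. These samples share groups, titles and scaling, so the correlations describe the table only.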

How the data were processed

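The authors deposited 1 table of FPKM values for 23993 genes in 24 libraries, read as deposited. Labels and methods name rRNA depletion, 75-bp paired-end reads, TopHat2, Cufflinks and Cuffdiff and the mm10 build per the submitters' processing notes, and in the methods also HISAT2, StringTie, ComBat and the removal of outlying samples. Whether ComBat was applied to these values is not given in the sources used here. Read depth is not in the table. The steps of the lowest values put relative depth at 0.459 to 2.47 of Sst female library 2, an approximation since 16.7% to 35.1% of low genes lay at the step. An exact 0 can be a failed estimate. No interval for counting error was possible.

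Near-identical libraries (SD of log2 ratio under 10% of the next pair's, over genes above 5 FPKM in both) were averaged, giving 22 samples. Groups came from the sample labels. Male Sst controls were split by title. Values were log2(FPKM + 1), and fold changes on this scale understate low genes. A linear model in limma 3.58.1 (R 4.3.3), with robust and trended empirical Bayes variances, was fitted to all samples in 5 groups for the 14566 genes whose mean exceeded 0.4 FPKM. Tests were two-sided. P-values were adjusted over all these genes by Benjamini-Hochberg, with a threshold of 0.05. The study's count test was not possible without counts. The script was tested on simulated data. Summed gamma subunit levels were compared by an exact permutation test (scipy 1.17.1).

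All 10 genes are named in every comparison. Of the related lists, up to 4 genes past the threshold are named. The genes and lists were chosen with earlier results of these data known. Coordinates are RefSeq's on GRCm38.p6 (all 10 genes matched), and coding sequences are from GENCODE M1 transcripts. Alternatives covered scaling, pseudocount, filter, weights, the samples fitted, a microglia covariate, the title number as a block and leaving out each sample. Averaging libraries with a log2 ratio SD below 0.3 was added after seeing the data.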

Additional observations from a re-analysis of the deposited data

Results flagged for a closer look

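Of 32 gene and group combinations of 4 to 10 samples examined (the 10 genes and Eif2s3y, on log2(FPKM + 1)), 3 held a sample far from the rest by Dixon's test, and chance flags about 1 in 20. Eif2s1 stood at 79.7 FPKM in the near-identical pair of Sst male libraries 0 and 1, against 9.01 to 18.5 in the other 5 Sst male controls. Eif2ak1 stood at 18.2 FPKM in the near-identical pair of Pvalb male libraries 0 and 2, against 28.6 to 31.6 in the other 5. Eif2b1 stood at 8.54 FPKM in Pvalb male library 6, against 5.90 to 6.44 in the other 5. The first 2 are means of 2 libraries that agreed closely. The causes were not tested.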

How the results depend on the processing

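Of the 10 genes, those past the threshold numbered 0 by sex, 0 with CUS, 1 by line and 2 by title. By sex the number was 4 with near-identical libraries kept apart and 2 with all male controls as 1 group, and 0 to 2 without 1 sample. With CUS it was 2 against numbered controls and 0 in every fit without 1 sample. By line it was 0 with median scaling, with only the 2 sides fitted, with near-identical libraries kept apart, with the microglia covariate, without the libraries of high Xist, with numbered males only, with the replicate block and with close-lying libraries averaged, 6 with array weights and 0 to 3 without 1 sample. By title it was 1 with only the 2 sides fitted, 1 with close-lying libraries averaged, 4 with array weights and 1 to 3 without 1 sample. The gamma subunit sum differed by -1.76 to -1.45 (log2) without 1 sample, with an exact permutation p of 0.0556, the smallest possible, when a male sample was left out (-1.66 without the near-identical pair), and by -1.55 with close-lying libraries averaged. Signs turned, with a call in 1 of the fits, for Eif2ak3 with CUS against numbered controls (1.90), and by line for Eif2ak1 with the microglia covariate (0.13) and with array weights for Eif2s3x (-0.26) and Eif2ak3 (0.39). Of 1487 single-gene values under alternatives 1432 kept their direction or stayed uncalled, 85 of them with a changed sign, 27 lost and 24 gained a call. The causes were not tested.

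Counts over all genes moved more. By sex 1175 genes passed, 11 with the replicate block, 13 with close-lying libraries averaged and up to 3958 with near-identical libraries kept apart. With CUS 3 passed, and 1 to 4079 under alternatives. By line 2003 passed, and 9 to 7730. By title 3544 passed, and 585 to 5502. By sex 42.3% of calls were higher in females, 74.5% when libraries were rescaled without small nucleolar RNA, which shifted the median of all genes from 0.05 to 0.23, and 34.4% with median scaling. Same-numbered samples of different groups did not deviate together (correlations from -0.04 to 0.12), so the numbers were not taken to pair samples, and in the replicate block the number of the 10 genes past the threshold was 0 by sex and 0 by line. For CUS no such block was made, since coded titles carry no shared number. Without read counts, small differences in genes of a few FPKM were not resolvable here.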
